A study of Homo sapiens with 12 samples.

Results

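The genes described here are 10 that cells switch on within minutes of growth factor signalling or that brake the kinases carrying that signal: the transcription factor genes EGR1, FOS, FOSL1, JUN and MYC, and the feedback genes DUSP4, DUSP6, SPRY2, SPRY4 and SPRED1. They were chosen by name, and a probe set counted if the platform's table gives it 1 of these genes and no other. Of the 10 genes, 8 had such a probe set (15 probe sets in all), out of 10346 genes and 17313 probe sets with a single gene in the whole table. FOS and DUSP4 had none and are not analysed here. After genes with a low mean were left out, 7 of the 8 were among the 7759 genes tested, and SPRY4 was not.

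The levels were measured on Affymetrix arrays in the human glioblastoma cell line U251, in 4 groups of 3 arrays. The control group received an siRNA that matches no known human transcript. The ETV6 siRNA group received a pool of siRNAs (ON-TARGETplus SMARTpool) against ETV6, which encodes an ETS-family transcriptional repressor, and the NFKB1 siRNA group received such a pool against NFKB1, whose p105 product is cut to the NF-kB subunit p50. The fourth group, called double siRNA here, received both pools. Every siRNA was used at 50 nM and all transfections used DharmaFECT 2, but the time between transfection and RNA extraction, and whether the total amount of siRNA was made equal between groups, are not given in the sources used here. A single cell line was used, the knock-down is transient, and the siRNA enters only the cells that were transfected. The labels number 3 replicates per group without saying whether they were independent cultures. The spread behind each p-value is that between these arrays and may be technical.

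Growth factor receptors act through RAS, RAF, MEK and ERK, and active ERK phosphorylates factors that sit on immediate early genes and switch them on without new protein synthesis. The products feed forward, as FOS and JUN proteins form the AP-1 factor and EGR1 and MYC drive further genes, and they feed back, as DUSP phosphatases remove phosphate from ERK and the SPRY and SPRED proteins restrain the step from receptor to RAF. In glioma this pathway is often kept active by receptor amplification or by loss of NF1, so transcripts of the feedback genes are used as a readout of ERK output.

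Promoter sequences of 7 of the 10 genes (9 start sites) are in the RefSeq promoter table of assembly GRCh38.p14, which gives 250 bases before and 50 after each start. Those of FOSL1, MYC and DUSP4 are named only. The promoters of EGR1, SPRY2 and SPRED1 are shown because these genes had the largest difference from control among the 7 with ETV6 siRNA, with NFKB1 siRNA and with both, in that order. They lie at chr5:138465229-138465528 on the plus strand, chr13:80341077-80341376 on the minus strand and chr15:38252586-38252885 on the plus strand, and are written 5′ to 3′ along the gene with motif matches in capitals.
EGR1: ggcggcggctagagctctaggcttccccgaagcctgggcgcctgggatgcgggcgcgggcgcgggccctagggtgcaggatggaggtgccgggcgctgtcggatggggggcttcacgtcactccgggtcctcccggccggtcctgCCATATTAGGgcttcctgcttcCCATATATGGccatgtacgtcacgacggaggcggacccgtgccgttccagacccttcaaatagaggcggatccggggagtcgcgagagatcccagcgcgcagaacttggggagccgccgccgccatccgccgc
SPRY2: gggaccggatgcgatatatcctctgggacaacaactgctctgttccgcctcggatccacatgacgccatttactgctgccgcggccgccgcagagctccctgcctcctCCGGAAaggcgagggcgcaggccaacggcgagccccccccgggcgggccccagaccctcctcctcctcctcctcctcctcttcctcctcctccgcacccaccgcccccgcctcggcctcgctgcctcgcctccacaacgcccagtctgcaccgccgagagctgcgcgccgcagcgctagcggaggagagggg
SPRED1: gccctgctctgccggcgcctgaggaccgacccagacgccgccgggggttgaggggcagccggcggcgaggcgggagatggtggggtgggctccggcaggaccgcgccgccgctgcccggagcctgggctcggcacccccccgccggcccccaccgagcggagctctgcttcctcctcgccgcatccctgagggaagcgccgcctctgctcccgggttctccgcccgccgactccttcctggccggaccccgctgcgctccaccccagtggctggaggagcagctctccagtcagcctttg

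The capitals in EGR1 are CArG boxes, the site of serum response factor, which by name means CC, then A or T only, then GG. The first, CCATATTAGG, begins at position -105 from the start and the second, CCATATATGG, at -83, and each reads as a match on both strands. Only 1.29% of the 35116 promoters in the table hold a CArG box. The capitals in SPRY2 are the ETS motif CCGGAA, at position -142 on the strand of the gene, a motif that 17.2% of promoters hold on either strand. SPRY2 has 3 start sites in the table and the match lies at the one shown. None of the 9 promoters held the AP-1 motif TGANTCA, the CRE motif TGACGTCA or the NF-kB consensus, which 7.71%, 1.85% and 7.73% of promoters hold. The bare ETS core GGAA was counted on both strands, including any within CCGGAA. Its median count was 3 over all promoters, 95.5% of which hold it. It occurred 4 times in the promoters of EGR1 and SPRY4, 6 times in that of DUSP6 and 3 times in that of SPRED1. The SPRY2 promoters held 3, 4 and 5, and those of FOS and JUN only 1 each. These matches describe the letters of the windows and no binding was measured.

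Knock-down was checked first. The ETV6 level stood at 22.6% of control with ETV6 siRNA and at 35.1% with double siRNA. NFKB1, on a probe set under the filter, stood at 60.3% with NFKB1 siRNA and at 58.8% with double siRNA in the fit with no filter (limma adjusted p = 0.00937 and 0.00222). Its log2 level was uneven between the NFKB1 siRNA arrays, from 6.05 to 6.95. It ran from 7.22 to 7.49 in control and from 6.50 to 6.58 with double siRNA. With ETV6 siRNA alone NFKB1 measured 141% of control, which was not called (adjusted p = 0.127). No pair of arrays held identical values. The 10 measured of 12 glioma and astrocyte markers, GFAP, VIM, NES and SOX2 among them, all lay above the filter, while OLIG2 and AQP4 had no single-gene probe set. The mean log2 level of the 10 measured markers ran from 11.76 to 11.88 in control arrays and from 11.77 to 11.83 with ETV6 siRNA. It ran from 11.65 to 11.71 with NFKB1 siRNA and from 11.58 to 11.64 with double siRNA, both below control. This mean is over genes that moved in both directions. In each of these groups 1 of the 10 was called higher, S100B, and 4 were called lower. Only 2 of 16 markers of other cell types were measured, SYT1 and MBP, both under the filter, so the defining markers of immune, epithelial and endothelial cells could not be checked. The mean log2 level of these 2 ran from 6.68 to 7.10 in control, from 7.12 to 7.36 with ETV6 siRNA, from 6.29 to 6.42 with NFKB1 siRNA and from 7.60 to 7.63 with double siRNA. The double siRNA arrays also stood apart technically. Their array medians were 8.34 to 8.38 against 8.08 to 8.28 on the other 9 arrays, and their 5th percentiles 6.15 to 6.16 against 5.46 to 6.04. Their poly-A spike-ins averaged 7.97 to 8.05 against 8.37 to 9.35, and their ACTB 3′ minus 5′ log2 difference was 2.05 to 2.16 against 1.52 to 1.91. The part of these differences in the results below for double siRNA was not tested. The GAPDH 3′ minus 5′ difference overlapped, 0.46 to 0.51 against 0.37 to 0.54. In bulk RNA, fewer cells with a transcript and less transcript per cell cannot be told apart.

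All levels below are log2 probe set levels, and all differences are differences of log2 group means from 1 linear model over all 12 arrays (limma), given ± SE. A gene is called higher or lower where its p, adjusted by Benjamini-Hochberg over the 7759 genes, is under 0.05. Each gene is shown on its brightest probe set. A probe set's brightness depends on its own probes, so levels are compared between groups and not between genes. Where groups of arrays are said below to lie apart, the share of all genes that separate likewise was not counted. Such separation therefore adds nothing to the calls.

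**Figure D1:**
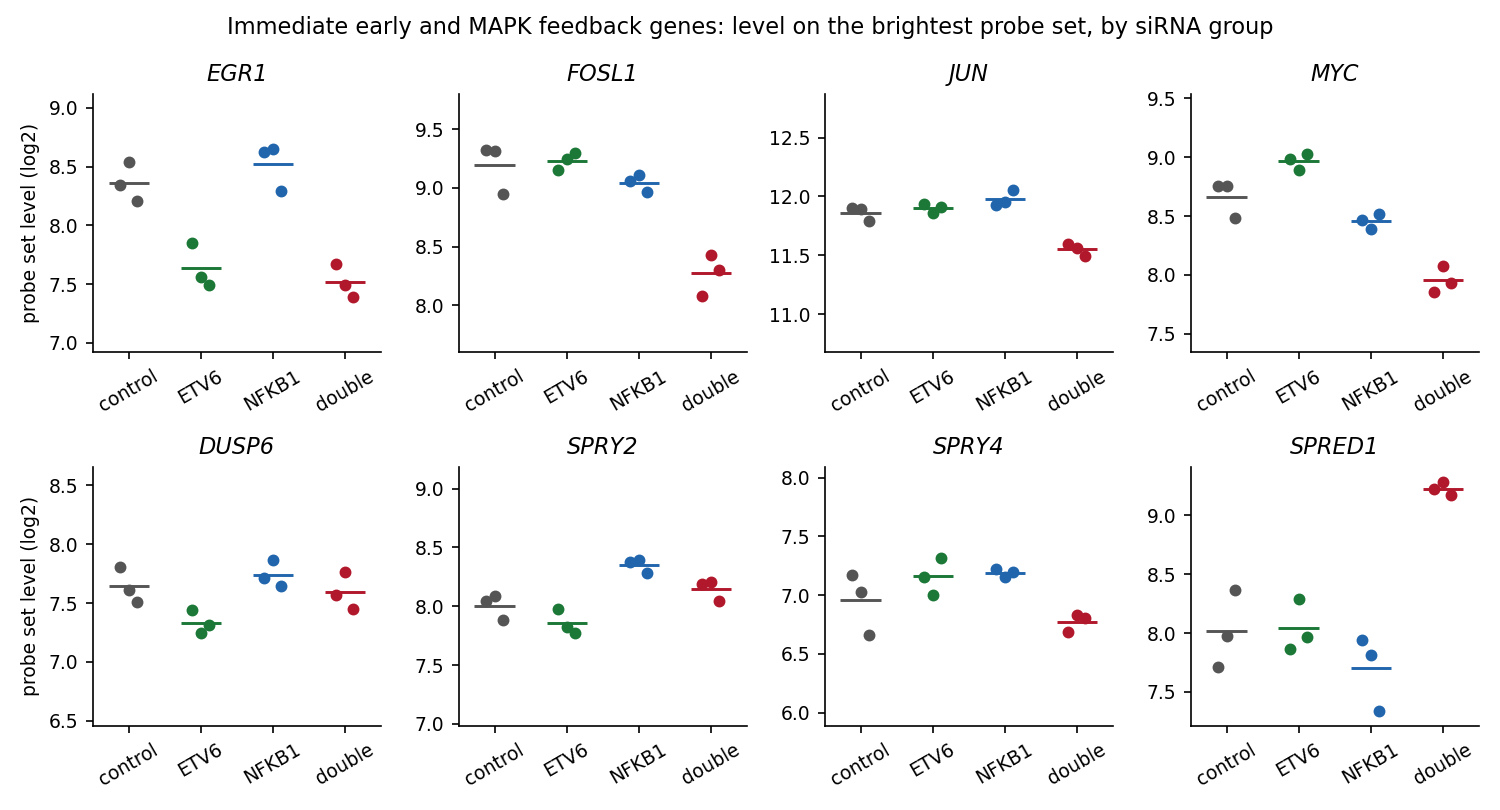
Log2 probe set level of 8 immediate early and MAPK feedback genes (vertical axes, each spanning the same number of log2 units) in the 4 siRNA groups (horizontal axis); points are single arrays and bars are group means of 3 arrays. EGR1 is low in both groups with ETV6 siRNA, SPRED1 is high with double siRNA (9.17 to 9.28), and FOSL1, JUN and MYC are lowest with double siRNA.

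EGR1, a zinc finger factor that is a classical first responder to ERK, was low wherever ETV6 siRNA was present. Its level was 8.35, 8.54 and 8.20 in the control arrays and 7.85, 7.56 and 7.50 with ETV6 siRNA. With NFKB1 siRNA it was 8.63, 8.65 and 8.29, and with double siRNA 7.67, 7.49 and 7.39. All 6 arrays with ETV6 siRNA lay below all 6 without it, and within each of these sets the groups overlapped. EGR1 thus fell by 0.73 ± 0.13 with ETV6 siRNA, to 60.5% of control (adjusted p = 0.00452), and by 0.84 ± 0.13 with double siRNA, to 55.7% (adjusted p = 7.96e-05). NFKB1 siRNA alone gave a difference of 0.16 ± 0.13 that was not called (adjusted p = 0.326). Adding NFKB1 siRNA to ETV6 siRNA gave -0.12 ± 0.13 (95% interval -0.40 to 0.16, adjusted p = 0.39), an interval that leaves room for a further change in either direction.

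EGR1 has a second, dimmer probe set, whose mean of 6.13 is under the filter level of 7.54. There it measured 6.26, 6.60 and 6.02 in control, 5.85, 5.89 and 5.70 with ETV6 siRNA, 6.46, 6.78 and 6.71 with NFKB1 siRNA, and 5.93, 5.68 and 5.68 with double siRNA. The arrays with ETV6 siRNA again lay below those without it. With ETV6 siRNA and with double siRNA each value lay below the 5th percentile of its own array (5.74 to 5.97 and 6.15 to 6.16). In the fit of all 17313 probe sets, where 36.5% were called higher and 39.9% lower with double siRNA, the second probe set was lower with double siRNA (-0.53 ± 0.14, adjusted p = 0.00457), and its difference of -0.48 ± 0.14 with ETV6 siRNA missed the threshold (adjusted p = 0.0658).

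MYC, the bHLH factor that drives growth and ribosome genes, was highest with ETV6 siRNA and lowest with double siRNA. It measured 8.75, 8.76 and 8.48 in control, 8.98, 8.89 and 9.03 with ETV6 siRNA, 8.47, 8.39 and 8.52 with NFKB1 siRNA, and 7.86, 8.08 and 7.93 with double siRNA. The order of the means was ETV6 siRNA, control, NFKB1 siRNA, double siRNA, and only control and NFKB1 siRNA overlapped. MYC was higher with ETV6 siRNA by 0.30 ± 0.08, or 1.23-fold (adjusted p = 0.0381). That call is fragile: it was lost in 12 of 22 alternative analyses, among them leaving out control replicate 3 (0.21, adjusted p = 0.0694), ETV6 siRNA replicate 1 (0.29, adjusted p = 0.113) or ETV6 siRNA replicate 3 (0.27, adjusted p = 0.134). It was also lost without NFKB1 siRNA replicate 1 (adjusted p = 0.0562), without NFKB1 siRNA replicate 2 (adjusted p = 0.0512) and without double siRNA replicate 3 (adjusted p = 0.0587), which enter only the shared spread.

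The difference of MYC with NFKB1 siRNA, -0.21 ± 0.08, was not called (adjusted p = 0.0656). It was called without control replicate 3, the lowest of the control arrays for this gene (-0.30, adjusted p = 0.0061). With double siRNA MYC fell by 0.71 ± 0.08, to 61.2% of control (adjusted p = 1.46e-05). Double siRNA was also below each single siRNA, by a log2 difference of -1.01 ± 0.08 from ETV6 siRNA (adjusted p = 2.17e-06) and -0.50 ± 0.08 from NFKB1 siRNA (adjusted p = 0.000106).

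FOSL1, which encodes the AP-1 subunit FRA-1 and accumulates when ERK stays active, stood apart in the double siRNA arrays. Its level was 9.32, 9.31 and 8.95 in control and 9.15, 9.25 and 9.29 with ETV6 siRNA. It was 9.06, 9.11 and 8.96 with NFKB1 siRNA, and 8.08, 8.43 and 8.31 with double siRNA. The 3 double siRNA arrays lay below all other 9. FOSL1 fell by 0.92 ± 0.11 with double siRNA, to 52.8% of control (adjusted p = 1.53e-05), while the differences with ETV6 siRNA (0.03 ± 0.11, adjusted p = 0.902) and NFKB1 siRNA (-0.15 ± 0.11, adjusted p = 0.279) were not called. Without control replicate 3, again the lowest control array, FOSL1 was called lower with NFKB1 siRNA too (-0.28, adjusted p = 0.031).

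JUN, the central AP-1 subunit, made a smaller step of the same kind. It measured 11.90, 11.89 and 11.79 in control, 11.94, 11.86 and 11.91 with ETV6 siRNA, 11.93, 11.96 and 12.05 with NFKB1 siRNA, and 11.60, 11.56 and 11.50 with double siRNA. The double siRNA arrays lay below the other 9 by a small step. JUN fell by 0.31 ± 0.05 with double siRNA, to 80.8% of control (adjusted p = 0.000208). Its difference with NFKB1 siRNA, 0.12 ± 0.05, was not called (adjusted p = 0.093), but was called after each array was shifted to the same median (0.21, adjusted p = 0.0293).

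The 4 probe sets of JUN disagreed on the fall with double siRNA. In the fit of all probe sets 2 of them were lower (-0.31 ± 0.06, adjusted p = 0.000565, and -0.33 ± 0.12, adjusted p = 0.0253), and the other 2 were not called (-0.14 ± 0.07, adjusted p = 0.111, and 0.05 ± 0.18, adjusted p = 0.827). The probe set at 0.05 is the dimmest and its mean, 6.39, is under the filter level, while that at -0.14 lies above it. With the mean of the probe sets in place of the brightest, the difference was -0.18 and not called (adjusted p = 0.0718). The brightest probe set is of the kind whose probes can also match other transcripts (suffix x).

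Among the feedback genes SPRED1 moved furthest. It encodes a membrane-bound inhibitor that works with NF1 to keep RAS inactive. The control arrays were at 7.71, 7.98 and 8.37, those with ETV6 siRNA at 7.87, 8.29 and 7.97, and those with NFKB1 siRNA at 7.94, 7.82 and 7.34. The double siRNA arrays were at 9.23, 9.28 and 9.17. They lay above all other 9, which overlapped among themselves and were widely spread. SPRED1 rose by 1.21 ± 0.18 with double siRNA, or 2.31-fold (adjusted p = 7.34e-05), with no call for ETV6 siRNA (0.02 ± 0.18, adjusted p = 0.962) or NFKB1 siRNA (-0.32 ± 0.18, adjusted p = 0.171). Without control replicate 1 the NFKB1 siRNA difference reached -0.47 (adjusted p = 0.0499). The second probe set of SPRED1 gave 6.34, 6.05 and 6.45 in control, 6.16, 6.30 and 6.22 with ETV6 siRNA, 6.26, 5.84 and 6.17 with NFKB1 siRNA, and 7.63, 7.72 and 7.65 with double siRNA, a rise of 1.39 ± 0.12 (adjusted p = 6.47e-06 in the fit of all probe sets). The mean of this probe set, 6.57, is under the filter level.

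SPRY2, a Sprouty protein that blunts receptor signalling upstream of RAS, was the only one of the 7 tested genes called with NFKB1 siRNA. Its level was 8.04, 8.08 and 7.88 in control and 7.98, 7.82 and 7.77 with ETV6 siRNA. It was 8.38, 8.39 and 8.28 with NFKB1 siRNA, and 8.19, 8.20 and 8.04 with double siRNA. The NFKB1 siRNA arrays lay above all other 9, and the double siRNA arrays overlapped with control. SPRY2 rose by 0.35 ± 0.07 with NFKB1 siRNA, or 1.27-fold (adjusted p = 0.00322). With ETV6 siRNA the difference was -0.14 ± 0.07 (adjusted p = 0.278) and with double siRNA 0.14 ± 0.07 (adjusted p = 0.091), neither of them called. Without double siRNA replicate 3 the latter was 0.19 and called (adjusted p = 0.0444).

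DUSP6 encodes a cytoplasmic phosphatase specific for ERK. It measured 7.81, 7.61 and 7.51 in control, 7.44, 7.25 and 7.32 with ETV6 siRNA, 7.71, 7.87 and 7.64 with NFKB1 siRNA, and 7.57, 7.77 and 7.45 with double siRNA. The ETV6 siRNA arrays were the lowest, just below the lowest double siRNA and control arrays, and the other 3 groups overlapped. The difference of -0.31 ± 0.10 with ETV6 siRNA was not called (adjusted p = 0.0745), and was called without control replicate 3 (-0.37, adjusted p = 0.0349). The differences with NFKB1 siRNA (0.10 ± 0.10) and double siRNA (-0.05 ± 0.10) were not called either (adjusted p = 0.449 and 0.669). The 3 probe sets of DUSP6 differed from control by -0.31, -0.34 and -0.09 with ETV6 siRNA, none of them called in the fit of all probe sets. The mean level of the brightest, 7.58, lies just above the filter at 7.54.

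SPRY4, the other Sprouty gene, lay under the filter with a mean of 7.02, so its tests come from the fit with no filter over 10346 genes. It measured 7.17, 7.03 and 6.66 in control, 7.16, 7.002 and 7.32 with ETV6 siRNA, 7.22, 7.16 and 7.20 with NFKB1 siRNA, and 6.69, 6.84 and 6.80 with double siRNA. The control arrays overlapped with each other group, and no difference from control was called: 0.20 ± 0.12 with ETV6 siRNA (adjusted p = 0.369), 0.24 ± 0.12 with NFKB1 siRNA (adjusted p = 0.136) and -0.18 ± 0.12 with double siRNA (adjusted p = 0.182). Without control replicate 1 the NFKB1 siRNA difference was called (0.35, adjusted p = 0.0332), and without control replicate 3 the double siRNA difference (-0.33, adjusted p = 0.00542). Double siRNA was lower than ETV6 siRNA (-0.38 ± 0.12, adjusted p = 0.0101) and than NFKB1 siRNA (-0.42 ± 0.12, adjusted p = 0.00584), groups with no overlap. In that fit 48.8% and 50.2% of genes were called lower in these comparisons.

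**Figure D2:**
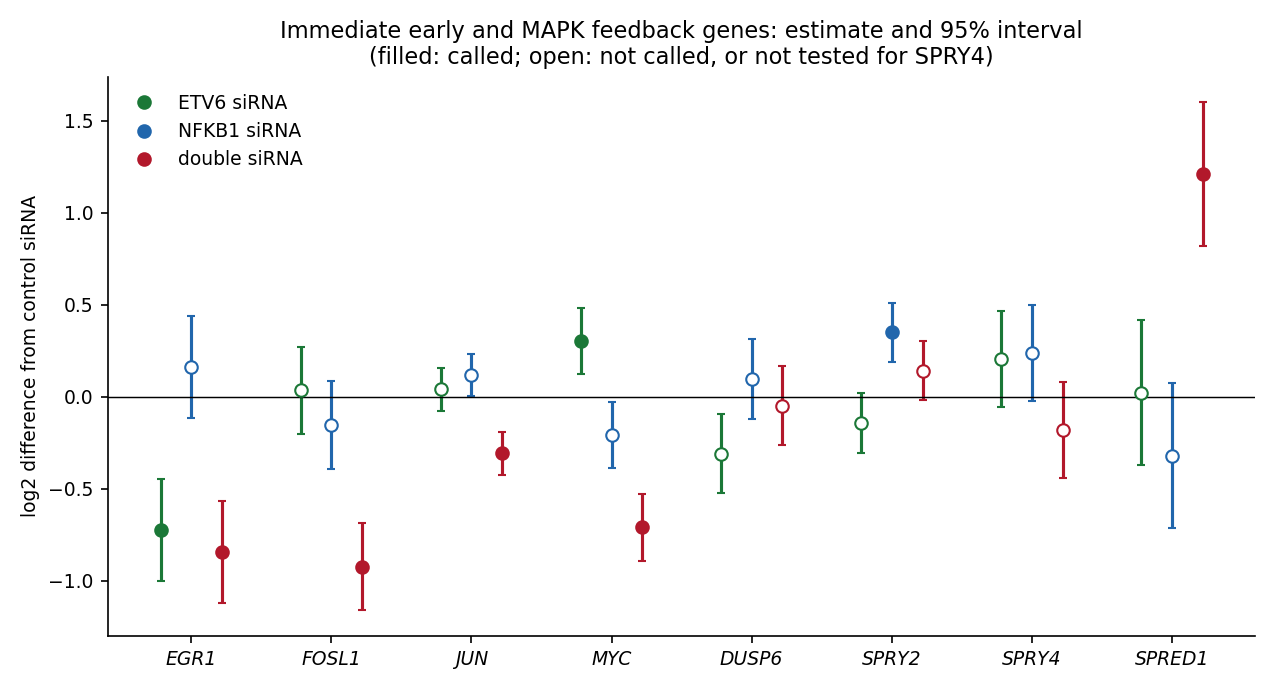
Log2 difference from control siRNA (vertical axis) of each gene (horizontal axis) with ETV6, NFKB1 and double siRNA; points are limma estimates from 3 arrays against 3, bars are 95% intervals, and filled points were called. EGR1 is called lower in both groups with ETV6 siRNA, SPRY2 is called higher only with NFKB1 siRNA, and SPRED1 rises by 1.21 with double siRNA.

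Counted over the 7 tested genes, ETV6 siRNA against control gave 2 calls, MYC higher and EGR1 lower, in a comparison where 4.38% of all genes were called higher and 6.28% lower. NFKB1 siRNA gave 1 call, SPRY2 higher, where 15.5% of all genes were called higher and 25.1% lower. Double siRNA gave 5 calls, SPRED1 higher and EGR1, FOSL1, JUN and MYC lower, where 31.9% were called higher and 49.0% lower. Most genes on the array were thus called with double siRNA, and 5 calls among 7 genes is near that background. The median difference of the 7 genes was 0.02, 0.10 and -0.31 in the 3 comparisons, beside 0.00, 0.01 and -0.13 over all genes tested. These comparisons share the control arrays.

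Among all 7759 genes, the difference of EGR1 with ETV6 siRNA stood at the 0.593 percentile from the lowest and that of MYC at the 97.7 percentile. With NFKB1 siRNA that of SPRY2 stood at the 96.7 percentile. With double siRNA, the falls of FOSL1 and EGR1 stood at the 0.825 and 1.64 percentiles and the rise of SPRED1 at the 95.9 percentile, while the fall of JUN stood at the 37.2 percentile, in the bulk of the distribution.

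**Figure D3:**
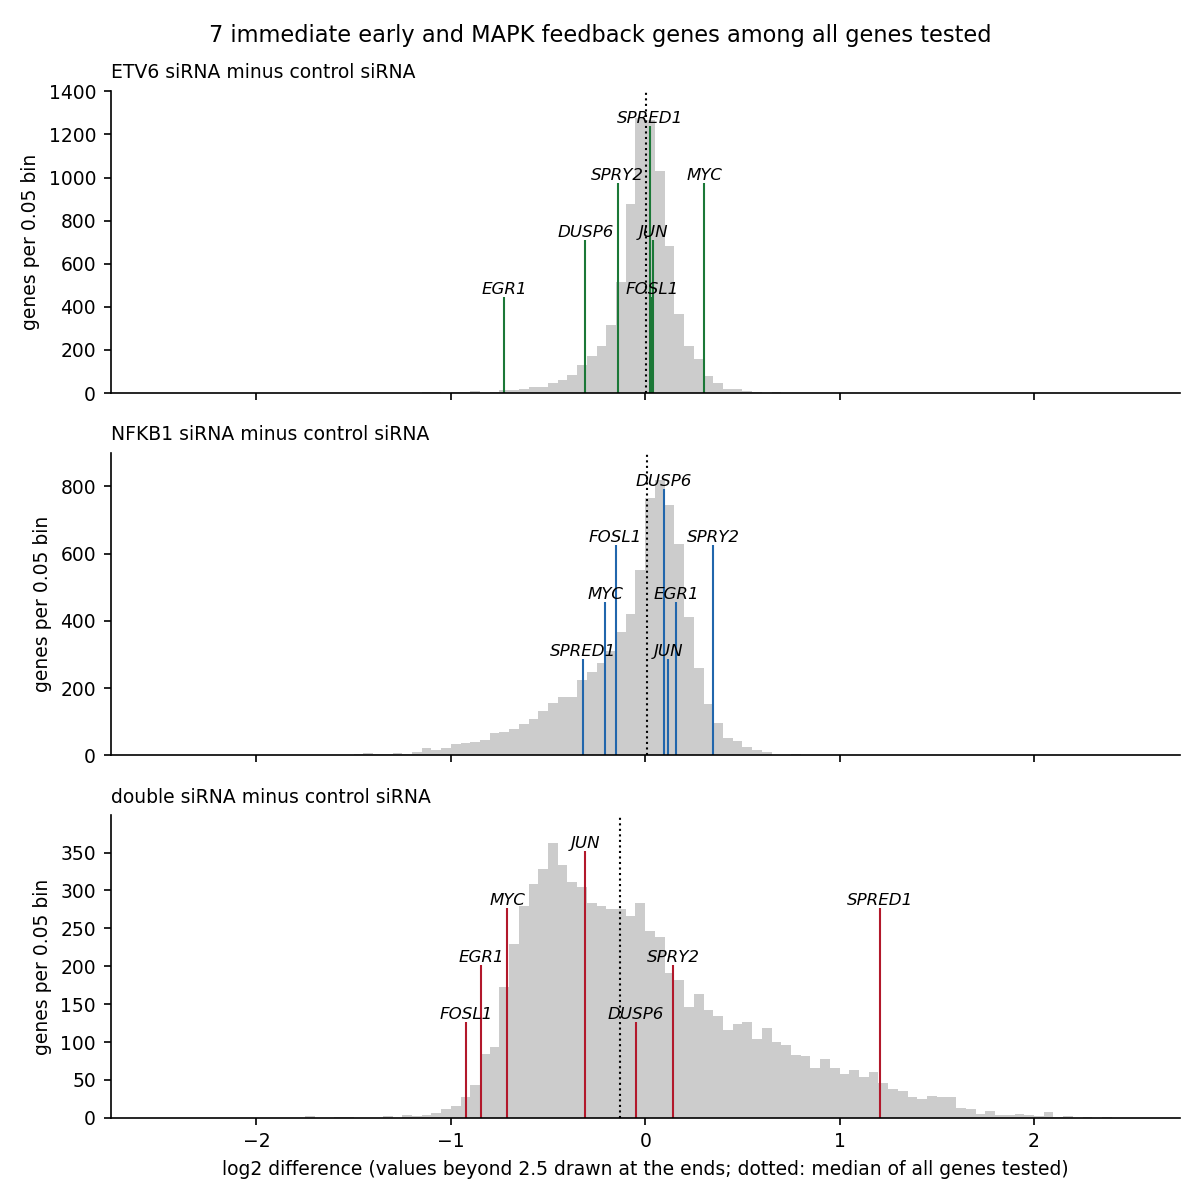
Histograms of the log2 difference from control over all 7759 genes tested (grey; vertical axis, genes per bin), with the 7 tested immediate early and MAPK feedback genes as coloured lines whose height only keeps the names apart; the dotted line is the median of all genes. EGR1 lies in the low tail with ETV6 siRNA, while JUN and DUSP6 lie within the bulk with double siRNA.

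The knock-down groups were next compared with each other. In these comparisons the control arrays enter only the shared estimate of the spread. Between double and ETV6 siRNA, which differ by NFKB1 siRNA, 6 of the 7 genes were called, 3 in each direction, where 34.9% of all genes were called higher and 51.2% lower. SPRED1 (1.19 ± 0.18, adjusted p = 7.11e-05), SPRY2 (0.29 ± 0.07, adjusted p = 0.00317) and DUSP6 (0.26 ± 0.10, adjusted p = 0.0269) were higher with double siRNA. MYC, FOSL1 (-0.96 ± 0.11, adjusted p = 1.01e-05) and JUN (-0.35 ± 0.05, adjusted p = 7.16e-05) were lower, and EGR1 was not called. The 3 higher genes are feedback genes and the 3 lower ones transcription factors. Other feedback genes differed in direction: SPRY4 was lower in this comparison in the fit with no filter, and of the 9 tested genes in the list of other MAPK feedback genes 1 was higher and 7 were lower (median -0.38). The DUSP6 call was lost without ETV6 siRNA replicate 2 (0.22, adjusted p = 0.093), without ETV6 siRNA replicate 3 (0.25, adjusted p = 0.0641) and without double siRNA replicate 2 (0.17, adjusted p = 0.126). In the fit of all probe sets, the dimmest ones of DUSP6 (0.13, adjusted p = 0.298) and JUN (-0.01, adjusted p = 0.953), both under the filter level, were not called. Nor was the second brightest of JUN (-0.15, adjusted p = 0.081), which lies above that level. Shifting each array to the same median also ended the calls of DUSP6 (0.13, adjusted p = 0.205) and SPRY2 (0.16, adjusted p = 0.0611).

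Between double and NFKB1 siRNA, which differ by ETV6 siRNA, 37.7% of all genes were called higher and 51.4% lower, and 6 of the 7 genes were called. SPRED1 was higher (1.53 ± 0.18, 2.88-fold, adjusted p = 6.53e-06). EGR1 (-1.004 ± 0.13, to 49.9%, adjusted p = 1.17e-05), FOSL1 (-0.77 ± 0.11, adjusted p = 2.93e-05), JUN (-0.43 ± 0.05, adjusted p = 1e-05), MYC and SPRY2 (-0.21 ± 0.07, adjusted p = 0.0187) were lower. DUSP6 was not called (-0.14 ± 0.10, adjusted p = 0.182), though it was once the arrays were shifted to the same median (-0.36, adjusted p = 0.00288) and without double siRNA replicate 2 (-0.23, adjusted p = 0.0492). The SPRY2 call was lost without NFKB1 siRNA replicate 1 (adjusted p = 0.0529), NFKB1 siRNA replicate 2 (adjusted p = 0.0609) or double siRNA replicate 3 (adjusted p = 0.0856).

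Between the single knock-downs, where 21.8% of all genes were called higher with ETV6 siRNA and 13.1% lower, 4 of the 7 genes were called. MYC was higher with ETV6 than with NFKB1 siRNA (0.51 ± 0.08, 1.42-fold, adjusted p = 0.000854). EGR1 (-0.89 ± 0.13, adjusted p = 0.000388), SPRY2 (-0.49 ± 0.07, adjusted p = 0.000511) and DUSP6 (-0.41 ± 0.10, to 75.5%, adjusted p = 0.00915) were lower. On its dimmest probe set, which is under the filter level, DUSP6 was not called here (-0.30 ± 0.11, adjusted p = 0.0688 in the fit of all probe sets). The arrays of the single knock-downs did not overlap in the 4 called genes. They did not overlap in FOSL1 either, which was not called (0.19 ± 0.11, adjusted p = 0.193). The share of all genes without overlap was not counted, so the lack of overlap adds nothing to the calls. The 4 calls remained with any array left out. The difference of EGR1 was among the lowest of all genes in this comparison, at the 0.0773 percentile.

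The interaction asks whether the change that ETV6 siRNA made was the same with and without NFKB1 siRNA (double minus ETV6 minus NFKB1 plus control). The knock-down of ETV6 itself was not equal in both settings. Its log2 level ran from 6.60 to 6.80 with ETV6 siRNA alone and from 7.29 to 7.44 with double siRNA. The part of this inequality in the interactions was not tested. Over all genes 36.5% were called with a positive and 49.8% with a negative interaction. Of the 7 genes 4 were called. SPRED1 was positive: ETV6 siRNA gave 0.02 alone and 1.53 beside NFKB1 siRNA, an interaction of 1.504 ± 0.25 (adjusted p = 0.000172). MYC turned from 0.30 alone to -0.50 beside NFKB1 siRNA, an interaction of -0.80 ± 0.12 (adjusted p = 6.3e-05). FOSL1 went from 0.03 to -0.77 (interaction -0.80 ± 0.15, adjusted p = 0.000417) and JUN from 0.04 to -0.43 (interaction -0.47 ± 0.07, adjusted p = 0.00012). In the fit of all probe sets, those of JUN gave interactions of -0.47, -0.27, -0.58 and -0.18, from the brightest to the dimmest. The last, on a probe set under the filter level, was not called (adjusted p = 0.514). Among all genes tested the interactions of SPRED1, MYC, FOSL1 and JUN stood at the 91.2, 8.54, 8.58 and 36.6 percentiles.

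For EGR1 the change with ETV6 siRNA was -0.73 alone and -1.004 beside NFKB1 siRNA, and the interaction of -0.28 ± 0.18 was not called (95% interval -0.67 to 0.11, adjusted p = 0.16). It was called without NFKB1 siRNA replicate 3 (-0.39, adjusted p = 0.045) and after shifting each array to the same median (-0.50, adjusted p = 0.0106). That shift also brought SPRY2, at -0.06 ± 0.10 (adjusted p = 0.566), to a called -0.29 (adjusted p = 0.0197). DUSP6 was not called (0.16 ± 0.14, adjusted p = 0.285). SPRY4, in the fit with no filter, had an interaction of -0.62 ± 0.17 (adjusted p = 0.00471), where 48.4% of genes were called lower. The median interaction of all genes tested was -0.18, and shifting each array to the same median moved it by -0.22, and the median differences of double siRNA from control, ETV6 siRNA and NFKB1 siRNA by -0.12, -0.13 and -0.21. Negative values for double siRNA are to be read beside these shifts. The median shift moves every double siRNA difference downward, so it can only enlarge the falls of EGR1, FOSL1, JUN and MYC. The rise of SPRED1 with double siRNA remained called under it.

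**Figure D4:**
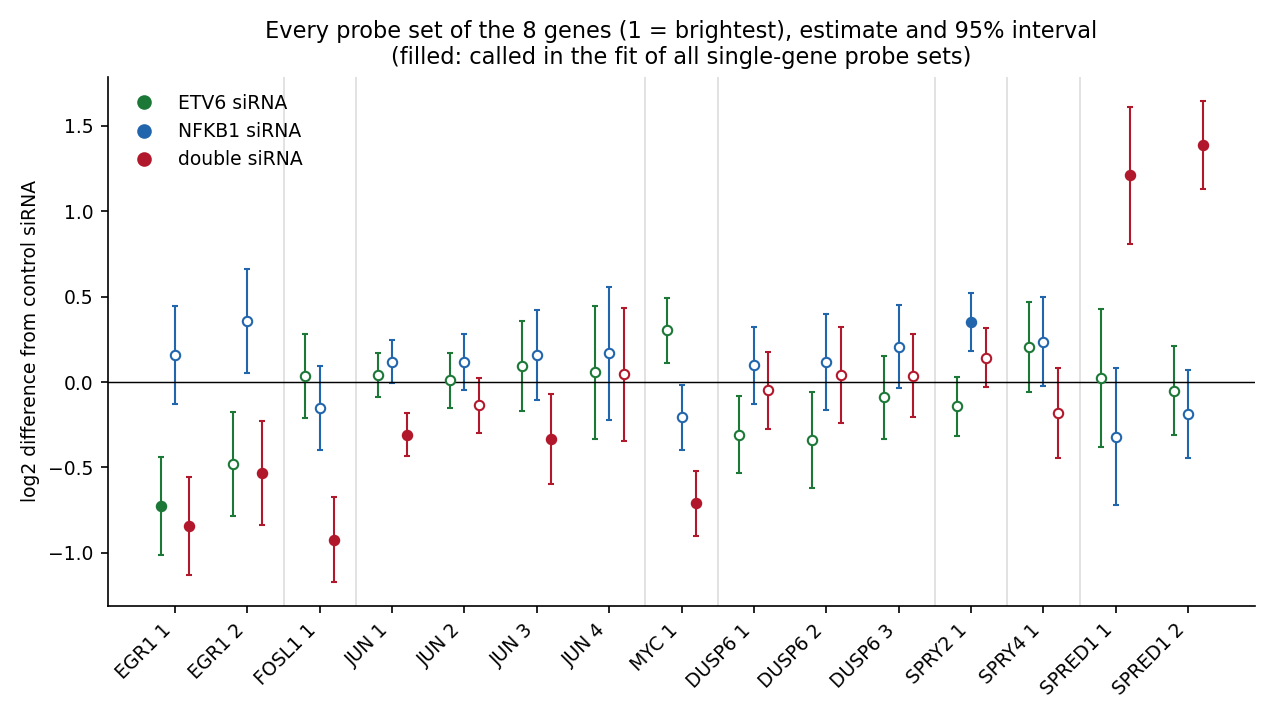
Log2 difference from control siRNA (vertical axis) on every probe set of the 8 genes (horizontal axis; 1 is the brightest), with ETV6, NFKB1 and double siRNA; points are limma estimates from 3 arrays against 3 in the fit of all 17313 probe sets, bars are 95% intervals and filled points were called. Both probe sets of EGR1 and of SPRED1 go the same way with double siRNA, while those of JUN run from -0.33 to 0.05. The second of EGR1, the second of SPRED1 and the dimmest of JUN lie under the filter level.

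The wider pathway was followed in 5 lists of other genes. Over all genes tested 10.7% were called with ETV6 siRNA, 40.6% with NFKB1 siRNA and 80.8% with double siRNA, in either direction, and the counts below are set against these shares. Of 27 other immediate early genes 14 were tested. With ETV6 siRNA 1 was called, ZFP36L1, which encodes an mRNA decay factor and was higher (0.53 ± 0.07, adjusted p = 0.000834). With NFKB1 siRNA 4 were higher and 3 lower: the stress factor gene ATF3 (0.57 ± 0.05, adjusted p = 8.93e-06) and MAFF (0.62 ± 0.12, adjusted p = 0.00228) rose, and the zinc finger gene KLF6 (-0.37 ± 0.06, adjusted p = 0.000543) and the BCL2-family survival gene MCL1 (-0.34 ± 0.06, adjusted p = 0.000671) fell. With double siRNA 3 were higher and 8 lower (11 of 14 called), with a list median of -0.26 beside -0.13 over all genes. KLF6 was higher there (0.66 ± 0.06, adjusted p = 3.1e-06), and KLF2 (-0.76 ± 0.08, adjusted p = 6.32e-06), IER5 (-0.46 ± 0.07, adjusted p = 6.26e-05) and the stress gene GADD45B (-0.52 ± 0.08, adjusted p = 9.99e-05) were lower. KLF6 thus lay on opposite sides of control with NFKB1 siRNA and with double siRNA. The count with NFKB1 siRNA became 7 higher and 3 lower when each array was shifted to the same median, and 2 were higher without NFKB1 siRNA replicate 1.

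Of 20 other MAPK feedback genes 9 were tested. The calls numbered 1 with ETV6 siRNA, 4 with NFKB1 siRNA and 6 with double siRNA, which is near 10.7% and 40.6% and below 80.8% of 9. With ETV6 siRNA DUSP1, which encodes a nuclear phosphatase of MAP kinases, was higher by 0.37 ± 0.07 (adjusted p = 0.00632). That call was lost when only the ETV6 siRNA and control arrays entered the fit (adjusted p = 0.0753). NFKB1 siRNA gave 2 higher, RASSF1 (0.49 ± 0.07, adjusted p = 0.000224) and DUSP1 (0.41 ± 0.07, adjusted p = 0.00081), and 2 lower, DUSP10 (-0.21 ± 0.06, adjusted p = 0.0147) and PEBP1, which encodes a RAF inhibitor (-0.16 ± 0.06, adjusted p = 0.0378). Shifting each array to the same median ended both falls, leaving 3 genes called, all higher. The PEBP1 call was also lost with any single array left out other than control replicate 3 or ETV6 siRNA replicate 1. The DUSP10 call was also lost with the mean of its probe sets (-0.12, adjusted p = 0.101). With only the groups compared neither DUSP10 (adjusted p = 0.085) nor PEBP1 (adjusted p = 0.147) was called. With double siRNA 1 was higher, the EGFR inhibitor gene ERRFI1 (0.50 ± 0.06, adjusted p = 2.61e-05), and 5 were lower, DUSP7 (-0.55 ± 0.09, adjusted p = 0.000177), PEBP1 (-0.28 ± 0.06, adjusted p = 0.000576) and DUSP14 (-0.44 ± 0.11, adjusted p = 0.0029) among them. The list median was -0.17.

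Of 23 genes of the cascade from RAS to ERK 17 were tested. ETV6 siRNA gave 2 calls, both lower, the adaptor gene GRB2 (-0.43 ± 0.06, adjusted p = 0.0021) and PTPN11, which encodes the phosphatase SHP2 (-0.34 ± 0.08, adjusted p = 0.018). The PTPN11 call was lost when either replicate 1 or replicate 3 of ETV6 siRNA was left out, with only the groups compared, and with the mean of its probe sets, where the difference was -0.11 (adjusted p = 0.575). NFKB1 siRNA gave 1 higher and 3 lower. PTPN11 fell by 0.91 ± 0.08 (adjusted p = 1.14e-05), the exchange factor gene SOS2 by 0.65 ± 0.14 (adjusted p = 0.00432) and RPS6KA3, which encodes the ERK-activated kinase RSK2, by 0.49 ± 0.06 (adjusted p = 0.00017). GRB2 was higher there (0.21 ± 0.06, adjusted p = 0.0241), a call lost without control replicate 3, NFKB1 siRNA replicate 1 or NFKB1 siRNA replicate 2. Under the shift to the same median the NFKB1 siRNA counts became 6 higher and 3 lower.

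With double siRNA 6 cascade genes were higher and 10 lower, where 31.9% of all genes were called higher and 49.0% lower, and the list median was -0.25. The scaffold gene SHOC2 rose by 1.66 ± 0.17 (adjusted p = 7.01e-06). MAP2K2, which encodes MEK2 (-0.65 ± 0.07, adjusted p = 8.24e-06), MAPK3, which encodes ERK1 (-0.50 ± 0.06, adjusted p = 2.34e-05), and the RSK gene RPS6KA1 (-0.80 ± 0.10, adjusted p = 1.95e-05) fell.

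Of 17 other genes downstream of ERK 12 were tested, and with ETV6 siRNA 1 was higher and 4 were lower. The lower ones were the cyclin gene CCND1 (-0.61 ± 0.11, adjusted p = 0.00478), the EGFR ligand gene TGFA (-0.30 ± 0.06, adjusted p = 0.00756), ELK3, which encodes an ETS factor that works with serum response factor (-0.33 ± 0.07, adjusted p = 0.0109), and EMP1 (-0.41 ± 0.09, adjusted p = 0.0122). The ELK3 and EMP1 calls were lost without ETV6 siRNA replicate 3. The TGFA and ELK3 calls were lost with only the groups compared, and that of TGFA also with the mean of its probe sets (-0.22, adjusted p = 0.126). No gene was called higher in 9 of the 12 fits that left out a single array. NFKB1 siRNA gave 3 higher and 5 lower: TGFA (0.32 ± 0.06, adjusted p = 0.0016), PHLDA1 (0.27 ± 0.07, adjusted p = 0.00661) and the ETS factor gene ETV5 (0.32 ± 0.09, adjusted p = 0.0166) rose, ETV5 not without NFKB1 siRNA replicate 2, and ELK3 fell by 1.12 ± 0.07 (adjusted p = 1.86e-06). The count of lower genes dropped from 5 to 1 without NFKB1 siRNA replicate 3, to 3 without NFKB1 siRNA replicate 2, and to 2 without NFKB1 siRNA replicate 1, control replicate 1 or control replicate 2. Double siRNA gave 3 higher and 6 lower, with a median of -0.23. CCND1 fell by 1.22 ± 0.11 (adjusted p = 2.81e-06), the urokinase receptor gene PLAUR by 0.84 ± 0.08 (adjusted p = 5.26e-06), the receptor gene EPHA2 by 0.81 ± 0.09 (adjusted p = 1.15e-05) and the ETS factor gene ELK1 by 0.53 ± 0.07 (adjusted p = 2.46e-05).

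MYC binds DNA as a dimer with MAX, and MXD proteins, MXI1 and MNT compete for MAX. Of 15 partner and regulator genes of MYC 7 were tested. With ETV6 siRNA AURKA, whose kinase stabilises MYC-family proteins, was lower (-0.32 ± 0.05, adjusted p = 0.00296), and MNT was higher (0.27 ± 0.06, adjusted p = 0.0209), a call lost without any single ETV6 siRNA array. With NFKB1 siRNA 5 of the 7 were higher (3 without NFKB1 siRNA replicate 1) and 1 was lower, where 15.5% of all genes were called higher and 25.1% lower. The MAX competitors MNT (0.33 ± 0.06, adjusted p = 0.00203), MXD3 (0.26 ± 0.06, adjusted p = 0.00564) and MXI1 (0.28 ± 0.07, adjusted p = 0.00634) were among the higher, and MYCBP2 fell by 1.01 ± 0.13 (adjusted p = 0.000136). With double siRNA 2 of the 7 were higher and 4 lower, with a median of -0.30. That median holds for the tested genes: over all 11 measured genes, with no filter, it was 0.08, beside -0.11 over all genes, with 3 higher and 5 lower. Among the tested genes MXI1 rose by 0.56 ± 0.07 (adjusted p = 1.42e-05), while MAX (-0.30 ± 0.04, adjusted p = 5.87e-05), MLX (-0.38 ± 0.06, adjusted p = 0.000195) and MNT (-0.36 ± 0.06, adjusted p = 0.000261) fell.

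The calls among the glioma and astrocyte markers were fewer than the share over all genes with double siRNA, 5 of 10 against 80.8%. They were 5 of 10 against 40.6% with NFKB1 siRNA and 3 of 10 against 10.7% with ETV6 siRNA. With ETV6 siRNA 1 of 10 was higher and 2 lower (0 to 3 lower with single arrays left out), with NFKB1 siRNA 1 higher and 4 lower, and with double siRNA 1 higher and 4 lower. NES, the intermediate filament gene of neural progenitors, fell by 1.16 ± 0.08 with double siRNA (adjusted p = 1.12e-06).

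**Figure D5:**
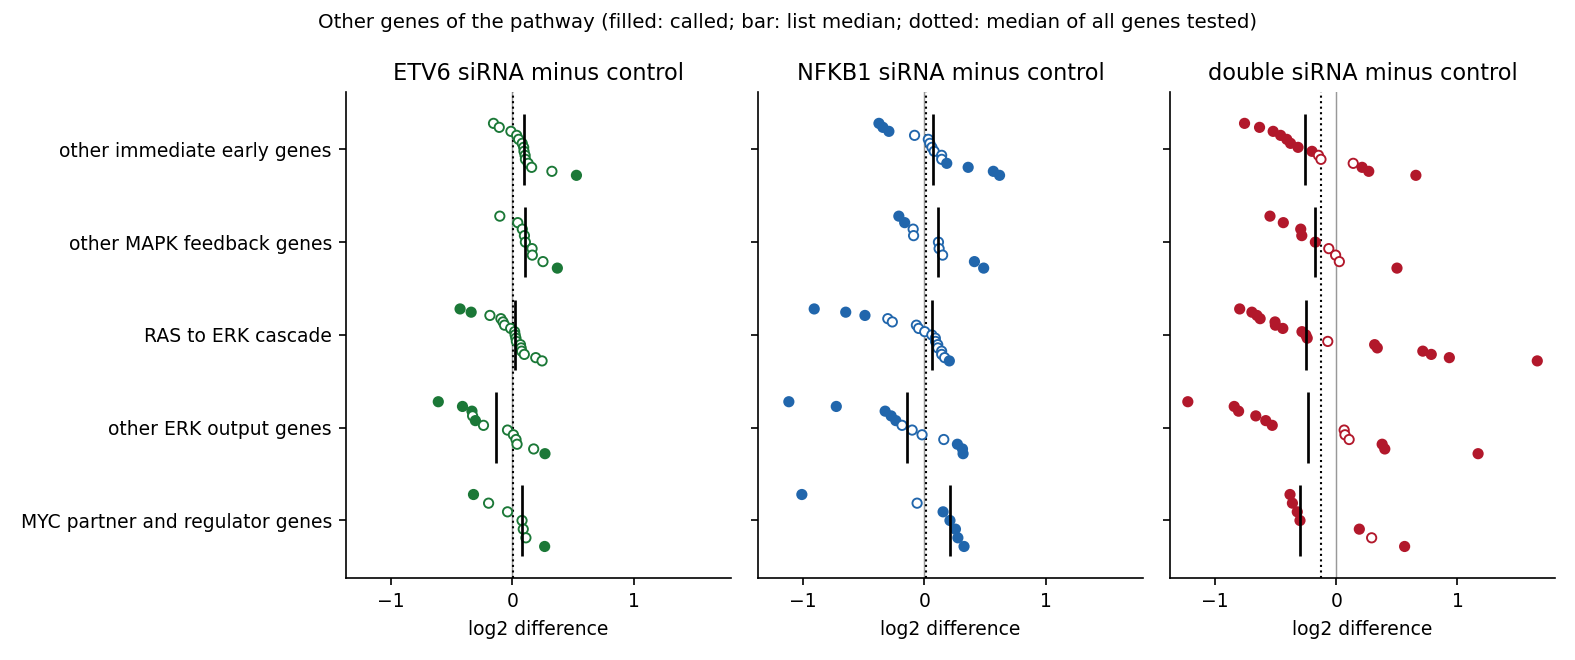
Log2 difference from control siRNA (horizontal axes) of the tested genes in 5 lists (rows) with ETV6, NFKB1 and double siRNA; each point is a gene, filled where called, bars are list medians and dotted lines the median of all genes tested. Few genes are filled with ETV6 siRNA, while with double siRNA most are filled and each list median of the tested genes lies below the median of all genes.

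For EGR1, MYC, DUSP6 and SPRY4 the 3 tested genes with the most similar pattern over the 4 group means were found, each gene taken relative to its own mean, by the root mean square difference in log2 units. The closest to EGR1 were RGMA (0.107), TBX2 (0.112) and PIAS3 (0.135). RGMA stood at -0.42, 0.31 and -0.68 from control with ETV6, NFKB1 and double siRNA. The closest to MYC were MLPH (0.0143), EFHD1 (0.0279) and WNT5B (0.0297), and MLPH stood at 0.30, -0.22 and -0.68. The closest to DUSP6 were DLX6 (0.0217), CD83 and RFX5, and to SPRY4 IRGQ (0.00952), TK2 and STAC. With 4 group means a gene of small changes finds near neighbours easily among 7759, and the distances for EGR1 were larger than those for the other 3 genes.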

How the data were processed

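RNA of U251 cells, a glioblastoma cell line, was measured on 12 Affymetrix arrays, 3 for each of 4 siRNA groups taken from the labels. The authors deposited log2 probe set levels for 19520 probe sets; their summarisation and normalisation are not stated. The deposited log2 values run from 3.05 to 14.75 and were used as they stand. Gene symbols came from the platform's probe table (17313 probe sets name a single gene), checked through the RefSeq gene table of GRCh38.p14, which changed 0 symbols. Each gene was represented by its single-gene probe set with the highest mean, and genes under the 25th percentile of the mean (log2 7.54) were left out, leaving 7759 of 10346.

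The model held 4 group means and was fitted by lmFit and eBayes (limma 3.58.1 under R 4.3.3), with 8 residual degrees of freedom and 3.42 from the prior, over the 12 arrays together; 7 two-sided comparisons were drawn from it. The p-values were adjusted by Benjamini-Hochberg over all genes tested, with calls at an adjusted p under 0.05. The fit was tested on simulated data. The number of arrays limits the precision, and an exact permutation test of 3 arrays against 3 was not used for single genes.

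The 10 genes, the other lists and the tests were chosen with earlier results of these data known. Genes were named by a rule: the 10 genes, both targets, up to 4 genes of smallest adjusted p in each other list per comparison with control, and the 3 genes most like EGR1, DUSP6, SPRY4 and MYC. SPRY4 and NFKB1 lie under the filter and are described from a fit with no filter. Alternatives were median shift, quantile normalization, another filter (none, or the 50th percentile), all probe sets singly or averaged per gene, array weights, trend and robust variances, only the groups compared, a replicate block, each array left out in turn, and 2 arrays left out together. Alternatives for SPRY4 and for the other lists were added after seeing the data. Promoters and motif matches come from the RefSeq promoter table.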

Additional observations from a re-analysis of the deposited data

Results flagged for a closer look

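In 4 genes the change made by ETV6 siRNA differed between cells with and without NFKB1 siRNA, by the interaction test in limma. The interaction was 1.504 for SPRED1, -0.80 for FOSL1, -0.80 for MYC and -0.47 for JUN on the log2 scale. Among all genes tested these stood at the 91.2, 8.58, 8.54 and 36.6 percentiles, in that order. The interaction of JUN thus lay in the bulk of the distribution. MYC is the only one of the 4 in which the change with ETV6 siRNA was called in both settings with opposite direction: higher by 0.30 alone and lower by 0.50 (a log2 difference of -0.50) beside NFKB1 siRNA. The difference of -0.50 stood at the 32.0 percentile of all genes, in the bulk. The 4 interactions stayed called in every alternative in which the gene was tested, beside 86.3% of all genes tested that were called for the interaction. No alternative used a dimmer probe set of a gene singly. On the dimmest of JUN, with a mean of 6.39 that is under the filter level, the interaction was -0.18 ± 0.25 and not called (adjusted p = 0.514, fit of all probe sets). The call of MYC with ETV6 siRNA alone was lost in 12 of 22 alternatives. The double siRNA arrays, on which the interaction rests, also had lower poly-A spike-ins and a larger ACTB 3′ minus 5′ difference than the other 9 arrays, and the part of this in the interaction was not tested. ETV6 stood at 22.6% of control with ETV6 siRNA alone and at 35.1% with double siRNA. The part of this unequal knock-down was not tested either.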

How the results depend on the processing

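Of 28 called differences of the 7 genes, 23 stayed called in every alternative in which the gene was tested, 5 were lost in at least 1, and 0 reversed. These alternatives read a gene on its brightest probe set or on the mean of its probe sets, not on its dimmer probe sets singly. With ETV6 siRNA the count of 2 called genes became 1 with a median shift, no filter, the mean of probe sets, every probe set, only the groups compared, the replicate block, and control replicate 3 with ETV6 siRNA replicate 2 left out; it was 4 with array weights and 0 at the 50th percentile filter. With NFKB1 siRNA the count of 1 became 2 with a median shift or quantile normalization, 3 with array weights or with those 2 arrays left out, and 0 at the 50th percentile. The mean of probe sets lowered the count from 5 to 3 for double siRNA against control and from 4 to 2 for ETV6 against NFKB1 siRNA, with fewer of the genes tested. At the 50th percentile filter, where only FOSL1 and JUN are tested, the count was 2 for double siRNA against control, ETV6 siRNA and NFKB1 siRNA and for the interaction, and 0 for ETV6 against NFKB1 siRNA. With each array left out in turn the counts ran from 1 to 2 (ETV6 siRNA), 1 to 3 (NFKB1 siRNA), 5 to 6 (double siRNA), 5 to 6 (double against ETV6), 5 to 7 (double against NFKB1), 4 to 4 (ETV6 against NFKB1) and 4 to 5 (interaction).

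Differences that were not called and changed sign were those of FOSL1 with ETV6 siRNA (-0.058 with array weights, -0.098 with those 2 arrays left out, and -0.090 to 0.099 with single arrays left out), SPRED1 with ETV6 siRNA (-0.013 with the mean of probe sets, and -0.13 to 0.20 with single arrays left out), DUSP6 with double siRNA (-0.13 to 0.036 with single arrays left out), the DUSP6 interaction (-0.058 with the median shift and -0.056 with quantile normalization) and the SPRY2 interaction (0.015 with array weights). The cause was not tested.

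Scaling changed the split over all genes: the share of higher among called genes with NFKB1 siRNA was 38.1%, against 63.1% with a median shift and 58.1% with quantile normalization, and for ETV6 against NFKB1 siRNA 62.6%, against 37.4% and 44.6%. Over all genes ETV6 siRNA gave 827 calls, 186 with only the groups compared and 2341 with array weights. For NFKB1 siRNA there were 3147, 1855 and 4709.

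The replicate numbers carry no stated pairing, and 5 of 18 same-numbered pairs had a correlation over 0.1 (range -0.52 to 0.48). In the fit with the replicate block MYC with ETV6 siRNA was no longer called (adjusted p = 0.0662) and SPRY2 with double siRNA was (adjusted p = 0.0246), so the counts were 1 and 6. With 3 arrays per group, the DUSP6 difference between double and ETV6 siRNA and the SPRY2 difference between double and NFKB1 siRNA depended on single arrays.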
